A study of Mus musculus with 13 samples.

Results

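The CC chemokines described here are 10 mouse genes, Ccl2, Ccl3, Ccl4, Ccl5, Ccl6, Ccl7, Ccl8, Ccl9, Ccl12 and Ccl22. They were chosen by gene symbol from the 18193 genes that had a probe set on the arrays, and all 10 were among the 15370 genes tested. Expression was measured on 13 Affymetrix arrays of RNA from cells that had been sorted from tumors with an antibody against CD31, a surface protein of endothelial cells that platelets and some leukocytes also carry. The resistant group (4 arrays) and the sensitive group (4 arrays) came from tumors of mice given B20, an antibody against mouse VEGF-A, and the 5 remaining arrays formed the control group, which the labels describe no further. According to the methods of the study, the tumors of this model grew from luciferase-labelled SKOV3ip1 cells, a human ovarian cancer line, and mice were assigned to the sensitive or resistant group by the bioluminescence of the tumor during treatment. The athymic nude mice listed in these methods lack a thymus and so hold few mature T cells. The labels call the arrays biological replicates without saying whether each was 1 animal, so that the tests measure the spread between these samples.

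CC chemokines are small secreted proteins with adjacent cysteines near the N terminus. They bind G protein-coupled receptors on leukocytes and direct monocytes, macrophages, lymphocytes and granulocytes into tissue. Macrophages, activated endothelial cells, stromal cells and cytotoxic lymphocytes all make them, several members only after a signal through NF-kB or interferon. In tumors Ccl2 is best known for the recruitment of monocytes from blood.

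The arrays differed from each other beyond their group labels. The median log2 level of 18 macrophage and monocyte markers was 7.10 to 9.28 on resistant arrays and 7.51 to 9.31 on control arrays. Among sensitive arrays it was 9.32 on array 4 and 3.65 to 4.37 on arrays 1, 2 and 3. The median of 14 endothelial markers was 3.49 to 4.28 on resistant arrays, 2.83 to 3.52 on sensitive arrays and 3.21 to 7.44 on control arrays, with control arrays 4 and 5 at 7.11 and 7.44. Pecam1, which encodes CD31, was at 2.74 to 3.41 on resistant arrays, 2.32 to 3.16 on sensitive arrays and 2.39 to 6.56 on control arrays, and so on most arrays close to the floor of 2.01 below which all values were set to that level. The labelled cell type was therefore not matched by endothelial markers on most arrays, and the samples are called by their group below. The difference between 3' and 5' probe sets of control transcripts, which grows as RNA degrades, was 5.75 on sensitive array 4 and 2.15 to 4.11 on the other 12 arrays. The overall signal, as a trimmed mean of the deposited values off the log2 scale, was 19.4 on sensitive arrays 1 and 2. It was 23.8 to 33.5 on the other arrays. Quantile normalization, which gives all arrays 1 distribution of values, raised Ccl4 on sensitive arrays 1 and 2 from 6.28 and 6.19 to 7.11 and 6.99. Correlations between arrays of 1 group were 0.90 to 0.95 for resistant, 0.66 to 0.92 for sensitive and 0.91 to 0.98 for control samples.

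In RefSeq's mouse annotation (GRCm38.p6) 9 of the 10 members lie on chromosome 11 in clusters of neighbours. One cluster holds Ccl2, Ccl7, Ccl12 and Ccl8, the other Ccl5, Ccl9, Ccl6, Ccl3 and Ccl4, and Ccl22 lies on chromosome 8. The annotated spans of Ccl3 and Ccl4 overlap. Promoter sequence (250 bases before to 50 after the start) was given for 6 members, Ccl3, Ccl6, Ccl8, Ccl9, Ccl12 and Ccl22. Of the 15 pairs among these, Ccl6 and Ccl9 shared the longest run on the same strand, 13 bases, and Ccl8 and Ccl12 followed with 11. Ccl3 shared runs of 8 bases with Ccl6 and with Ccl9, and moved with them over the arrays as well (correlations of 0.92 and 0.91). The promoters of Ccl6 and Ccl9 and of Ccl8 and Ccl12 are printed, as each of these pairs also moved together. How often other promoters share runs of such length was not tested. The first pair is chr11:83593038-83593337 and chr11:83578587-83578886, both on the minus strand, with capitals on runs of at least 12 bases found in the other promoter.
Ccl6: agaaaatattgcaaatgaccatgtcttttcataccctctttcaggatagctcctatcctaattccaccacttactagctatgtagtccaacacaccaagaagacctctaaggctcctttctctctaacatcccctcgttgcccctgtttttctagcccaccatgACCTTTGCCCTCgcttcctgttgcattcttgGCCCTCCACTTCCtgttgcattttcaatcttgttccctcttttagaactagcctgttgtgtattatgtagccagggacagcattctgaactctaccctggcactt
Ccl9: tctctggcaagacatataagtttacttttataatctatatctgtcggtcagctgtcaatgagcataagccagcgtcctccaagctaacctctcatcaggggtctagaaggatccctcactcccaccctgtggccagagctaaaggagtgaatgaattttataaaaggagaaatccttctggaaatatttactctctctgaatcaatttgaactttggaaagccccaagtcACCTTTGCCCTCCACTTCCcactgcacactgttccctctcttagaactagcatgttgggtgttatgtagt
In Ccl9 the capitals form 1 stretch of 19 bases, which in Ccl6 is split into 2 runs. The second pair is chr11:82114935-82115234 and chr11:82101595-82101894, both on the plus strand, with capitals on the TATA box core.
Ccl8: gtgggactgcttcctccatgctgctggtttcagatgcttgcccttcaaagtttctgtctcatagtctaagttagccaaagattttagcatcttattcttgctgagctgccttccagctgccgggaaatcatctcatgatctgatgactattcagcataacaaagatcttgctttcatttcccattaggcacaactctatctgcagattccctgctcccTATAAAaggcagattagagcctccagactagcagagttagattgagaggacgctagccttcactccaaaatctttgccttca
Ccl12: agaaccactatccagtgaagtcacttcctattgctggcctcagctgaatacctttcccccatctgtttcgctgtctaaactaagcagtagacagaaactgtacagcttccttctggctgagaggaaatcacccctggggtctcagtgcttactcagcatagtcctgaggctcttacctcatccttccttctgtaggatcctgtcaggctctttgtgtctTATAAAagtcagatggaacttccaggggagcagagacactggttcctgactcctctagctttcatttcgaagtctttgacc
The letters TATAAA (searched on both strands) occurred in the promoters of Ccl8, Ccl9 and Ccl12, 3 of the 6 members, and in 13.6% of all 32851 promoters of the same length. A match to the NF-kB consensus (also on both strands) was found in 1 of 6 members, Ccl9, and in 8.46% of all promoters. These matches describe the letters in the window alone.

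**Figure D1:**
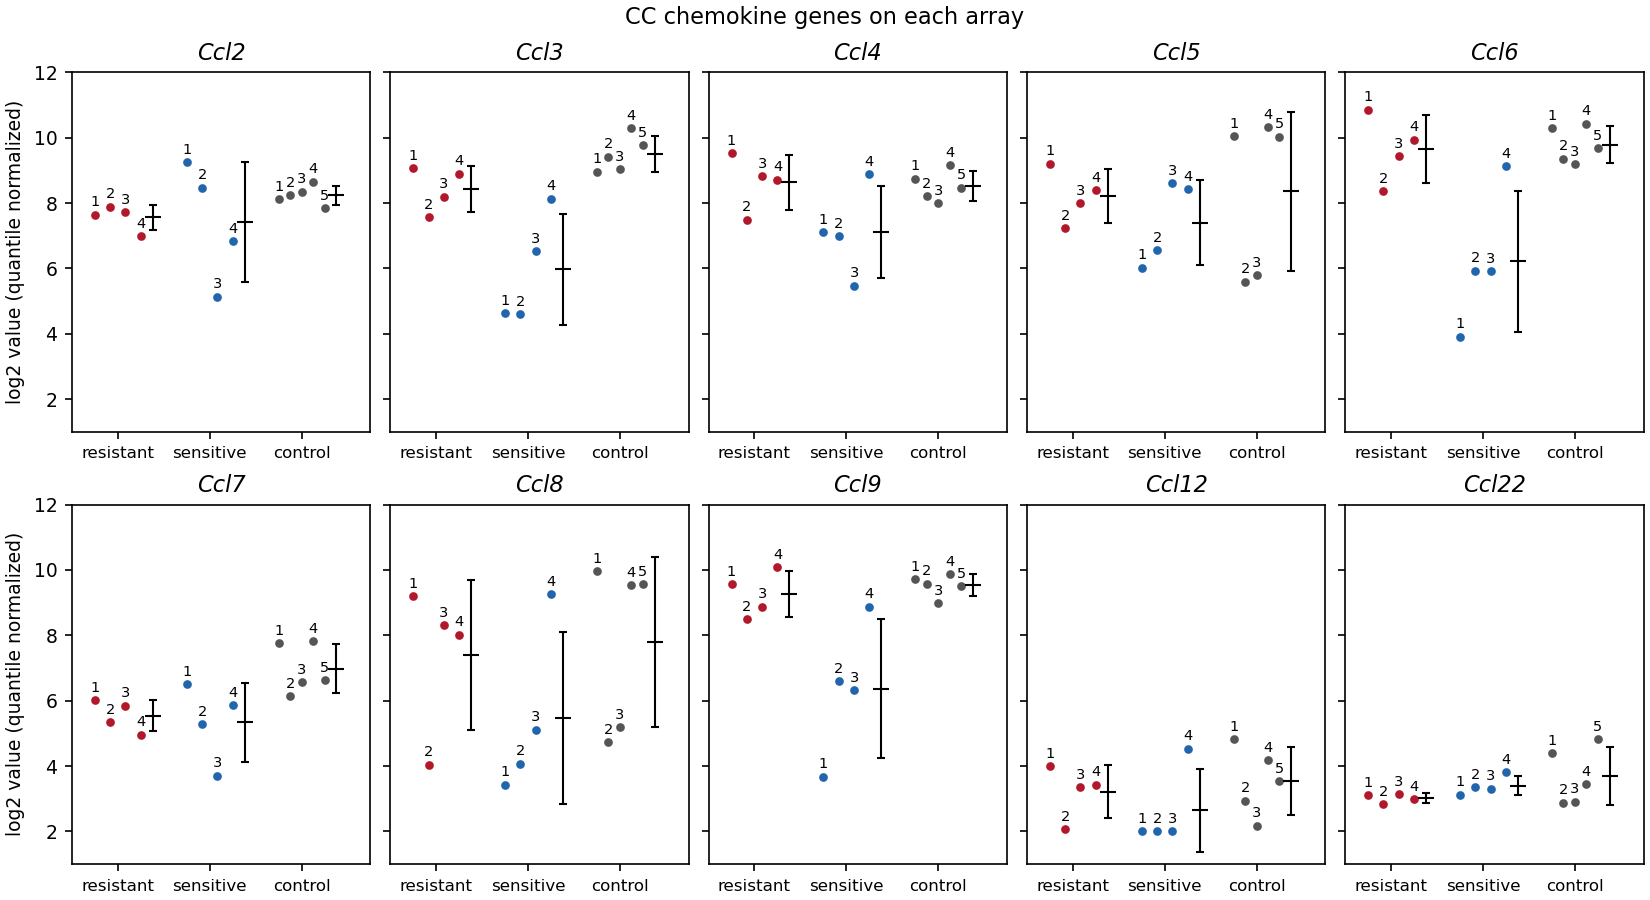
Quantile normalized log2 value (vertical axis) of each CC chemokine gene on every array (numbered points) in the resistant, sensitive and control groups. Black bars give the mean ± SD. Ccl3, Ccl6 and Ccl9 are lower on each sensitive array than on any control array, and Ccl12 and Ccl22 stay under 5 on every array.

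The Ccr1 ligands Ccl6 and Ccl9 were the members with the largest differences between resistant and sensitive samples, and Ccl3, another ligand of Ccr1, came next. Ccl6 had log2 values of 10.86, 8.36, 9.44 and 9.94 on resistant arrays 1 to 4, 3.92, 5.93, 5.91 and 9.13 on sensitive arrays 1 to 4, and 10.29, 9.35, 9.18, 10.43 and 9.68 on control arrays 1 to 5. Sensitive arrays 1, 2 and 3 lay far below all others. Sensitive array 4 lay within the range of resistant samples and, after normalization, just under the lowest control sample. Ccl6 was 10.8-fold higher in resistant than in sensitive samples (log2 fold change 3.43, SE 0.84, adjusted p = 0.398) and 11.8-fold lower in sensitive than in control samples (-3.57, SE 0.79, adjusted p = 0.189). A second probe set of Ccl6 gave differences of 3.84 and -4.35.

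Ccl9, also known as macrophage inflammatory protein-1 gamma, had a similar pattern of high and low arrays, with a Spearman correlation of 0.87 with Ccl6. Its values were 9.56, 8.50, 8.88 and 10.09 on resistant arrays, 3.67, 6.61, 6.32 and 8.88 on sensitive arrays, and 9.71, 9.58, 8.97, 9.87 and 9.51 on control arrays. The 3 lowest values were again those of sensitive arrays 1, 2 and 3. After normalization, sensitive array 4 overlapped with resistant samples and not with control samples. The log2 fold change was 2.89 between resistant and sensitive samples (SE 0.77, adjusted p = 0.433) and -3.16 between sensitive and control samples (SE 0.73, adjusted p = 0.191). The second probe set of Ccl9, whose means were 3.92 ± 0.87 in resistant, 2.69 ± 0.91 in sensitive and 4.80 ± 0.89 in control samples (SD, n = 4, 4 and 5), gave smaller differences of 1.23 and -2.11.

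Ccl3, also called macrophage inflammatory protein-1 alpha, differed from the pair above mainly in the resistant group, which lay further below the control group. It was at 9.07, 7.56, 8.19 and 8.90 on resistant arrays, 4.64, 4.59, 6.52 and 8.13 on sensitive arrays, and 8.96, 9.42, 9.03, 10.29 and 9.77 on control arrays. Every sensitive value was under every control value, and only resistant array 1 reached into the control range. Ccl3 was 11.5-fold lower in sensitive than in control samples (-3.52, SE 0.63, adjusted p = 0.175), 5.50-fold higher in resistant than in sensitive samples (2.46, SE 0.67, adjusted p = 0.447) and 1.06 lower on the log2 scale in resistant than in control samples (SE 0.63, adjusted p = 0.999946 for -1.06). The group means fell in the order control, resistant and sensitive, and the resistant and control means of 8.43 ± 0.69 and 9.49 ± 0.55 (SD, n = 4 and 5) were closer to each other than either was to the sensitive mean of 5.97 ± 1.70 (SD, n = 4).

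Ccl4, encoded next to Ccl3 and known as macrophage inflammatory protein-1 beta, showed a smaller form of this pattern. Values on resistant arrays were 9.52, 7.49, 8.82 and 8.71, those on sensitive arrays 7.11, 6.99, 5.47 and 8.89, and those on control arrays 8.75, 8.20, 7.99, 9.16 and 8.47. Here sensitive array 3 rather than 1 or 2 was lowest, and sensitive array 4 lay inside the range of both other groups. Ccl4 was 2.87-fold higher in resistant than in sensitive samples (1.52, SE 0.60, adjusted p = 0.629) and 2.64-fold lower in sensitive than in control samples (-1.40, SE 0.57, adjusted p = 0.371). Resistant and control means of 8.64 ± 0.84 and 8.51 ± 0.46 (SD, n = 4 and 5) differed by 0.12, with a 95% interval from -1.09 to 1.34. Without sensitive array 3, resistant minus sensitive was 0.97 and sensitive minus control -0.85.

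The Ccr2 ligands Ccl2 and Ccl7, which draw monocytes into tissue, did not follow Ccl3, Ccl6 and Ccl9. Ccl2 was at 7.65, 7.89, 7.72 and 6.98 on resistant arrays, 9.24, 8.47, 5.14 and 6.84 on sensitive arrays, and 8.11, 8.23, 8.35, 8.65 and 7.85 on control arrays. After normalization its highest and its lowest value over all 13 arrays were both in the sensitive group, on arrays 1 and 3. As deposited, the highest was 8.91 on control array 4, and sensitive array 1 was at 8.50. The resistant and sensitive means, 7.56 ± 0.40 and 7.42 ± 1.82 (SD, n = 4 each), differed by 0.14 with a 95% interval from -1.27 to 1.54 (adjusted p = 0.961), and that difference was -0.62 without sensitive array 3 and -0.06 without sensitive array 4. The differences of Ccl2 from control samples were -0.81 in sensitive samples (SE 0.62, adjusted p = 0.556) and -0.68 in resistant samples (SE 0.62, adjusted p = 0.999946). The first of these was -0.05 without sensitive array 3, -1.42 without sensitive array 1, and -1.24 or -1.35 with the deposited values unscaled or centred on array medians.

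Ccl7 was the member with the largest difference between resistant and control samples. Its values were 6.01, 5.35, 5.84 and 4.96 on resistant arrays, 6.50, 5.27, 3.70 and 5.86 on sensitive arrays, and 7.75, 6.14, 6.57, 7.82 and 6.63 on control arrays. After normalization all resistant values lay under all control values, and only sensitive array 1 reached the control range. As deposited, resistant array 1 at 6.34 lay above control array 3 at 6.19. Sensitive array 1 was then at 5.75, under all control arrays. Ccl7 was 2.72-fold lower in resistant than in control samples (-1.44, SE 0.53, adjusted p = 0.999946) and 3.13-fold lower in sensitive than in control samples (-1.65, SE 0.53, adjusted p = 0.291). Resistant and sensitive means of 5.54 ± 0.48 and 5.34 ± 1.20 (SD, n = 4 each) did not differ beyond their spread.

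Ccl8 and Ccl12 lie next to each other on the chromosome, and in the mouse Ccl8 acts through Ccr8 while Ccl12 acts through Ccr2. Ccl8 had values of 9.20, 4.05, 8.30 and 8.02 on resistant arrays, 3.43, 4.07, 5.11 and 9.27 on sensitive arrays, and 9.97, 4.74, 5.20, 9.53 and 9.57 on control arrays. Each group thus held arrays above 8 and arrays under 5.5, and the split ran through the groups rather than between them. The SD was 2.29 in resistant, 2.62 in sensitive and 2.60 in control samples, larger than that of at least 98.9% of genes in each group. Resistant minus sensitive was 1.92 (SE 1.52, adjusted p = 0.799) and sensitive minus control -2.33 (SE 1.44, adjusted p = 0.498), and neither exceeded the spread.

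Ccl12 was close to the floor and followed Ccl8 from array to array. It was at 3.99, 2.07, 3.36 and 3.43 on resistant arrays, at the floor on sensitive arrays 1, 2 and 3 and at 4.53 on sensitive array 4, and at 4.83, 2.95, 2.18, 4.18 and 3.53 on control arrays. The groups overlapped throughout, with differences of 0.57 (resistant minus sensitive, SE 0.64), -0.89 (sensitive minus control, SE 0.61) and -0.32 (resistant minus control, SE 0.61). The correlation between Ccl8 and Ccl12 over the 13 arrays was 0.93 (Spearman 0.90), and 0.90 over the 10 arrays left without sensitive arrays 1, 2 and 3.

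Ccl5, a chemokine of activated T and NK cells and macrophages that binds Ccr1 and Ccr3, varied widely within the control group. Its values were 9.20, 7.24, 7.998 and 8.39 on resistant arrays, 6.02, 6.56, 8.61 and 8.42 on sensitive arrays, and 10.05, 5.60, 5.80, 10.32 and 10.03 on control arrays. Control arrays 1, 4 and 5 held the 3 highest values of the series, and control arrays 2 and 3 the lowest. The SD of 2.44 among control samples was larger than that of 99.8% of genes, and the group means of 8.21, 7.40 and 8.36 for resistant, sensitive and control samples did not differ beyond it. Sensitive array 3, with the highest Ccl5 of its group, also had the highest median of 9 NK and cytotoxic lymphocyte markers, 5.10, and of 6 B cell markers, 7.64. Sensitive array 4, at a similar Ccl5 level, had an NK and cytotoxic lymphocyte median of 2.72. On control arrays 1, 4 and 5 that median was 4.35, 2.88 and 2.82. Its correlation with Ccl5 over the 13 arrays was 0.40 (Spearman 0.80). The part of these cells in the Ccl5 level was not tested.

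Ccl22, a Ccr4 ligand made by dendritic cells and macrophages, had the smallest spread of the members within the resistant and sensitive groups. It was at 3.12, 2.84, 3.14 and 2.996 on resistant arrays, 3.12, 3.36, 3.31 and 3.82 on sensitive arrays, and 4.40, 2.88, 2.91, 3.45 and 4.81 on control arrays. Control arrays 1 and 5 were highest and the other arrays lay within 1 log2 unit of each other. The resistant SD of 0.14 was larger than that of only 11.8% of genes, and the difference between resistant and sensitive samples, -0.38 (SE 0.39, adjusted p = 0.817), was the only negative one among the members.

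**Figure D2:**
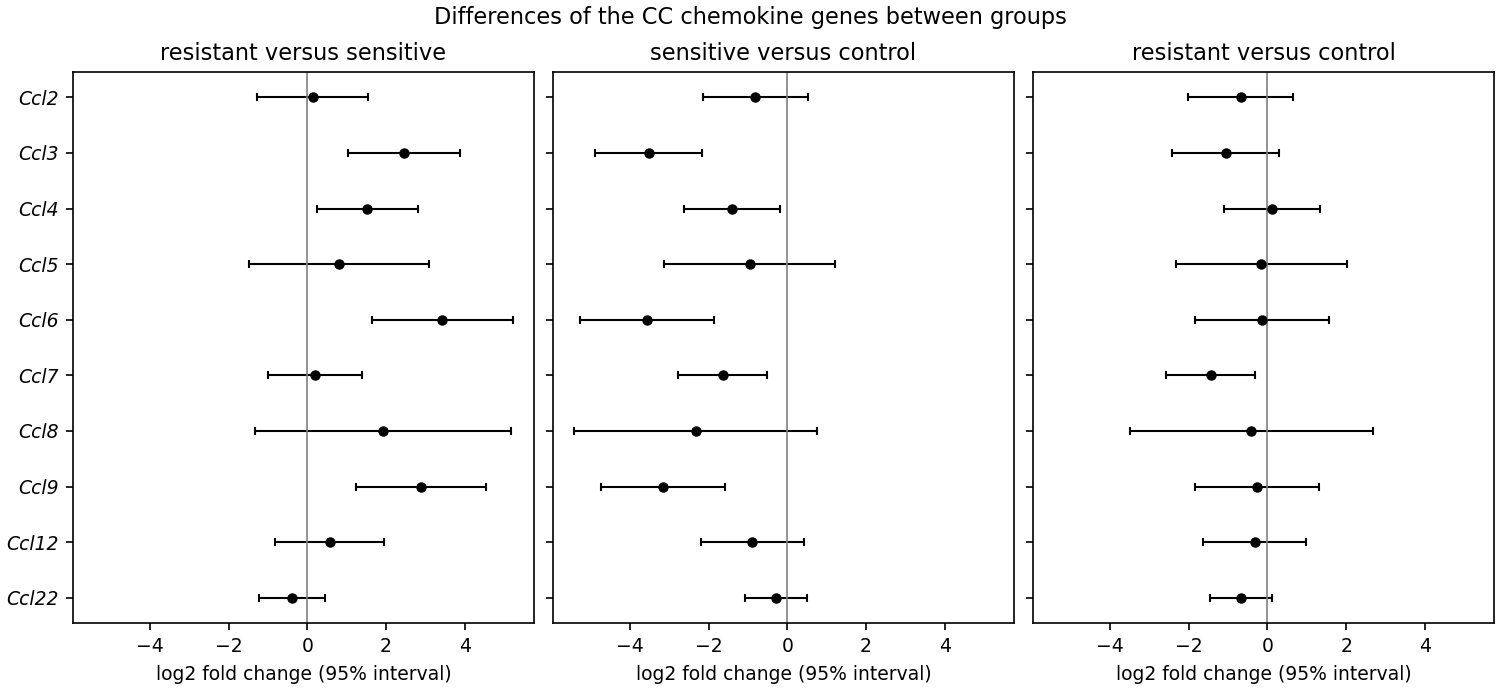
Log2 fold change (horizontal axis) of each CC chemokine gene in the 3 comparisons, with 95% intervals from the fit over all 13 arrays. The intervals of Ccl3, Ccl4, Ccl6 and Ccl9 lie above 0 in resistant versus sensitive, those of Ccl3, Ccl4, Ccl6, Ccl7 and Ccl9 below 0 in sensitive versus control, and that of Ccl7 below 0 in resistant versus control.

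The comparison of resistant with sensitive samples sets cells of tumors that grew under B20 beside cells of tumors that were responding to it. The paper describes collection before treatment, at the time of maximal response and at progression, and also mice given a control IgG. It does not say which of these the control arrays came from. Group therefore cannot be told apart from the time of collection or the length of treatment, here or in the comparisons with control samples. Log2 fold changes were positive for 9 of 10 members, with a median of 1.16, against 42.1% of all genes and a median of -0.07. No member was called at an adjusted p under 0.05 by limma, which called 0% of genes (0 of 15370, smallest adjusted p = 0.0609). At an unadjusted p under 0.05, 4 members were higher (Ccl3, Ccl4, Ccl6 and Ccl9), in a comparison where 4.54% of genes were higher at that level. The groups did not overlap for 0 members, and 0.976% of genes were higher without overlap. Over all genes 1087 passed an unadjusted p under 0.05 in limma and 528 in a plain pooled-variance test of both groups alone, run without the random variance model that the methods name, which also called 0 genes after adjustment.

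In sensitive against control samples all 10 members were lower, with a median of -1.52, where 58.4% of all genes were higher and the median was 0.09. Again no member was called among the 0% of genes called (smallest adjusted p = 0.0929, with 1828 genes at an unadjusted p under 0.05 in limma and 1370 in the same plain test, which called 0 after adjustment). At an unadjusted p under 0.05, 5 members were lower (Ccl3, Ccl4, Ccl6, Ccl7 and Ccl9), beside 6.58% of genes. The groups did not overlap for Ccl3, Ccl6 and Ccl9, 3 of 10 members, and 1.59% of genes were lower without overlap. For Ccl6 and Ccl9 this held after quantile normalization but not in the deposited values. As deposited, sensitive array 4 was at 9.29 and 9.07 for these genes, above control array 3 at 9.06 and 8.83.

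In resistant against control samples 9 of 10 members were lower, with a median of -0.36, where 54.3% of all genes were higher and the median was 0.03. The differences ran from -1.44 for Ccl7 to 0.12 for Ccl4, and some intervals were wide, with -3.50 to 2.68 for Ccl8. No member was called, nor was any gene (0%, smallest adjusted p = 0.999946, with 386 genes at an unadjusted p under 0.05 in limma and 1041 in the plain test, which called 0 after adjustment). Ccl7 was the 1 member lower at an unadjusted p under 0.05 (1.53% of genes) and the 1 member lower without overlap (1.39% of genes). In the deposited values the 2 groups overlapped for Ccl7. Without resistant array 2 the member median was 0.02, with 5 members higher and 5 lower. The 3 comparisons share their groups in pairs, with the sensitive arrays in the first 2, the control arrays in the last 2 and the resistant arrays in the first and the last, and so are not independent of each other.

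The calls in the first 2 comparisons turned on sensitive array 4. Without sensitive array 4, limma called 4 members in each, with 2.47% of genes higher in resistant than in sensitive samples and 3.53% lower in sensitive than in control samples. For resistant against sensitive samples Ccl3 was then at 3.18 (adjusted p = 0.00428), Ccl4 at 2.11 (adjusted p = 0.0415), Ccl6 at 4.40 (adjusted p = 0.00134) and Ccl9 at 3.72 (adjusted p = 0.00395). For sensitive against control samples the same 4 members were at -4.24, -1.99, -4.54 and -3.996 (adjusted p = 0.000331, 0.0332, 0.000578 and 0.00151). With sensitive array 4 as the lone sensitive sample, assumed to vary like the other groups, the member medians were -0.23 and -0.29, and Ccl3, Ccl6 and Ccl9 differed from resistant samples by 0.30, 0.52 and 0.38. The difference between the sensitive and control groups for Ccl3 was still -1.36 (SE 0.59) on that array, that for Ccl6 was -0.66 (SE 0.74) and that for Ccl9 -0.65 (SE 0.52).

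**Figure D3:**
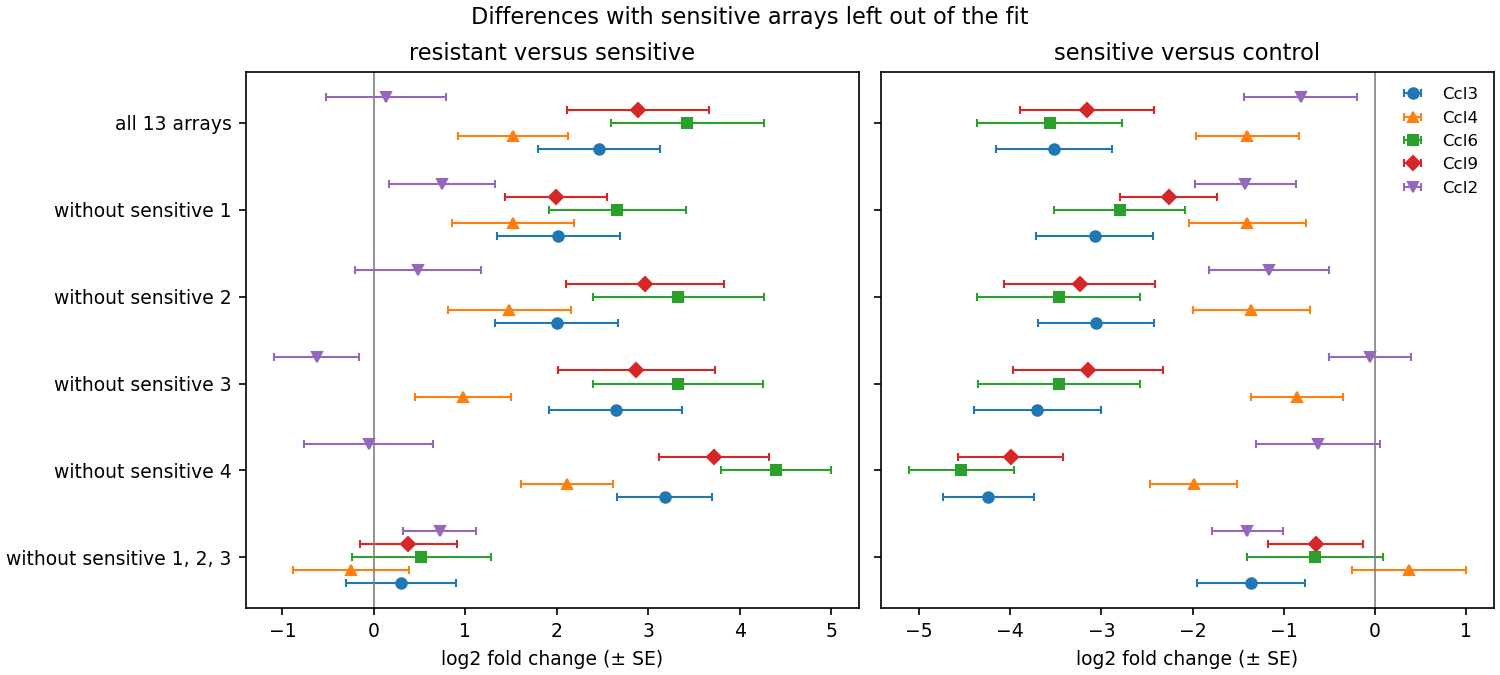
Log2 fold change ± SE (horizontal axis) of Ccl3, Ccl4, Ccl6, Ccl9 and Ccl2 with all 13 arrays and with sensitive arrays left out of the fit (rows). Ccl3, Ccl4, Ccl6 and Ccl9 lie farthest from 0 without sensitive array 4 and nearest to 0 with array 4 alone, where Ccl4 changes sign.

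Macrophage markers moved with these members. All 18 macrophage and monocyte markers were higher in resistant than in sensitive samples (median log2 fold change 2.78) and all 18 lower in sensitive than in control samples (median -2.63), while 9 were higher and 9 lower in resistant against control samples (median 0.06). On sensitive arrays 1, 2 and 3 the list median lay between 3.65 and 4.37, and Itgam, the integrin chain CD11b of myeloid cells, was at the floor on 3 sensitive arrays. The median of 10 markers of resident peritoneal macrophages was 6.07 to 7.04 on resistant, 3.61 to 4.91 on sensitive and 5.09 to 7.14 on control arrays, and so was low on sensitive array 4 as well. Fewer macrophages and less chemokine RNA per cell cannot be told apart in RNA from a bulk of cells.

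**Figure D4:**
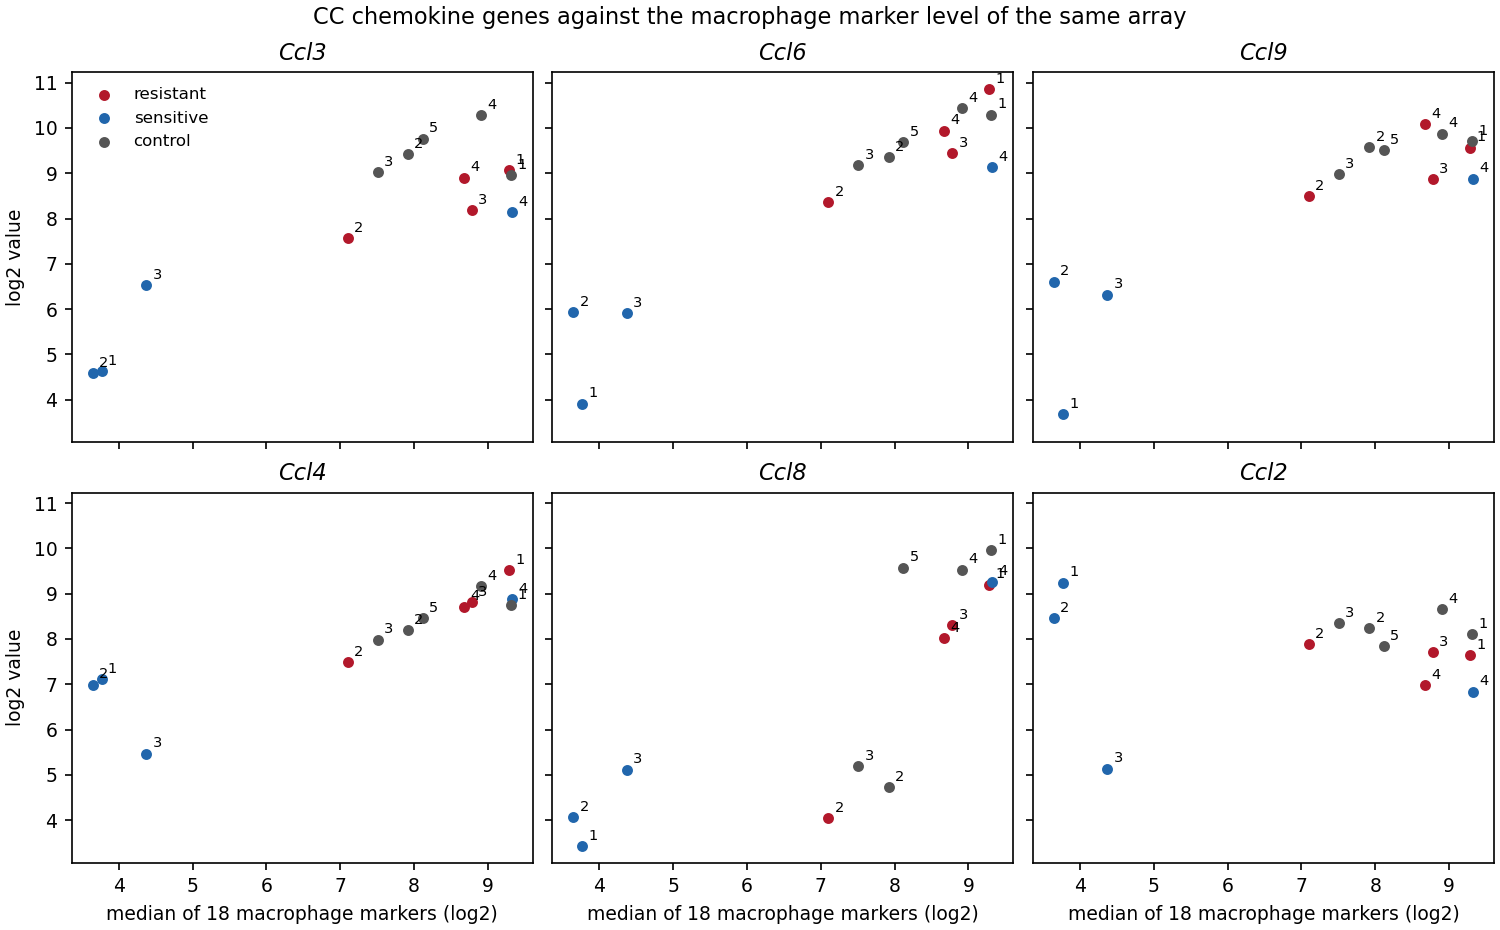
Log2 value of 6 CC chemokine genes (vertical axis) against the median log2 level of 18 macrophage and monocyte markers on the same array (horizontal axis), with arrays numbered within the resistant, sensitive and control groups. Ccl3, Ccl6 and Ccl9 are lowest on sensitive arrays 1, 2 and 3, whose marker median is under 4.5. Ccl2 has its highest normalized value, though not its highest deposited value, on 1 of them.

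Set against the macrophage list median over the 13 arrays, Ccl6 had a correlation of 0.95 (Spearman 0.75), Ccl9 of 0.89 (0.65), Ccl4 of 0.89 (0.92), Ccl3 of 0.88 (0.54), Ccl12 of 0.83 (0.96) and Ccl8 of 0.81 (0.84). Over the 10 arrays without sensitive arrays 1, 2 and 3 these were 0.72 for Ccl6, 0.45 for Ccl9, 0.91 for Ccl4, 0.18 for Ccl3, 0.94 for Ccl12 and 0.87 for Ccl8. The relation of Ccl3 to the list therefore rested on those 3 arrays, whereas Ccl4, Ccl8 and Ccl12 kept it among the others. Over the 13 arrays Ccl5 was at 0.52 (0.61), Ccl7 at 0.46 (0.37) and Ccl22 at 0.24 (0.37) with the list. Over the 10 they were at 0.65, 0.28 and 0.38. Ccl2 had a correlation of -0.03 (Spearman -0.37) with the list over the 13 arrays and -0.35 (-0.41) over the 10. Its correlation with the mesothelial list, whose median was 7.78 and 7.46 on sensitive arrays 1 and 2, was 0.57 (Spearman 0.52) over the 13 arrays and 0.12 (0.067) over the 10, and that with the fibroblast and pericyte list was 0.57 (0.73) and 0.63 (0.67). The 3' to 5' difference was 2.40 to 4.11 on resistant and 2.15 to 2.82 on control arrays. With it Ccl2 had a correlation of -0.38 (-0.40) over the 13 arrays and -0.79 (-0.52) over the 10. Ccl3 was at -0.13 (-0.47) and -0.55 (-0.62), and Ccl7 at -0.32 (-0.59) and -0.45 (-0.55). The other members lay between -0.38 (Ccl6) and 0.22 (Ccl12) over the 10 arrays. All of these are descriptions of arrays that share 1 normalization, and the part of other cells or of RNA quality in the levels was not tested.

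The genes most like each member over the 13 arrays were taken as those with the highest Pearson correlation among all genes tested. For Ccl6 they were Lipa, the lysosomal acid lipase, at 0.98 (Spearman 0.95), Wfdc17 at 0.97 (0.86) and the Fc receptor gene Fcgr3 at 0.97 (0.83). For Ccl9 they were Lyz1, a lysozyme, at 0.97 (0.70), Kif1c at 0.97 (0.71) and Lipa at 0.97 (0.80). Without sensitive arrays 1, 2 and 3 the values of Lyz1 with Ccl9 and Fcgr3 with Ccl6 were 0.57 and 0.65, so that these likenesses owed much to the 3 low arrays.

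For Ccl3 the list was Cotl1, an actin-binding protein, at 0.97 (0.92), the scavenger receptor gene Scarb1 at 0.97 (0.88) and Slc2a6 at 0.96 (0.93). For Ccl4 it was Ctsb, the protease cathepsin B, at 0.97 (0.92), Sdc3 at 0.97 (0.96) and Hebp1 at 0.97 (0.87). These 6 correlations stayed between 0.81 and 0.91 over the 10 arrays.

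Both Ccl8 and Ccl12 had Mrc1, the mannose receptor of alternatively activated macrophages, among their 3 nearest genes, at 0.96 (0.87) and 0.95 (0.97). Ccl8 was also near Slc37a2 at 0.94 (0.88) and Pxn at 0.93 (0.82), and Ccl12 near C6, a complement component, at 0.95 (0.88) and Aif1 at 0.94 (0.86). Mrc1 with Ccl8 was at 0.95 and with Ccl12 at 0.92 over the 10 arrays, so that the likeness did not depend on the low sensitive arrays.

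Ccl2 was nearest to Ywhag at 0.95 (0.91), Arhgap23 at 0.93 (0.71) and Vat1 at 0.91 (0.60). Ccl7 was nearest to the disulfide isomerase gene Pdia6 at 0.90 (0.96), the interferon-induced Oas1a at 0.87 (0.91) and Mocs2 at 0.86 (0.88). Over the 10 arrays the Ccl2 values were 0.85, 0.73 and 0.52, and the Ccl7 values 0.83, 0.74 and 0.73. Ccl5 was nearest to Osbpl3 at 0.95 (0.90), Trim30d at 0.95 (0.92) and Calhm6 at 0.91 (0.93). Ccl22 was nearest to Ahrr, the repressor of the aryl hydrocarbon receptor, at 0.94 (0.78), Tmem26 at 0.91 (0.80) and Dnah2 at 0.91 (0.70). Between members, Ccl6 and Ccl9 were at 0.97 (0.87), Ccl3 and Ccl6 at 0.92 (0.80) and Ccl5 and Ccl8 at 0.85 (0.81). The Ccr2 ligands Ccl2 and Ccl7 were at 0.72 (0.57), while Ccl2 and Ccl3 were at -0.03 (0.07). Over the 10 arrays the same pairs, in that order, were at 0.79, 0.64, 0.89, 0.70 and 0.53.

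The receptors were considered beside their ligands. There were 7 CC chemokine receptor genes tested, and Ccr3 and Ccr4 did not pass the filter on low values. In resistant against sensitive samples 2 of the 7 were higher and 5 lower (median -0.46), and only Ccr1, the receptor of Ccl3, Ccl5, Ccl6 and Ccl9, had an unadjusted p under 0.05. Ccr1 lay between 7.27 and 9.32 on resistant arrays (median 8.58), between 2.70 and 9.50 on sensitive arrays (median 4.34) and between 8.07 and 9.14 on control arrays (median 8.27). It was 9.31-fold higher in resistant than in sensitive samples (3.22, SE 1.08, adjusted p = 0.569) and 9.23-fold lower in sensitive than in control samples (-3.21, SE 1.03, adjusted p = 0.291).

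Ccr2, the receptor of Ccl2, Ccl7 and Ccl12, was at 4.86 ± 0.88 in resistant, 5.32 ± 1.03 in sensitive and 4.54 ± 0.45 in control samples (SD, n = 4, 4 and 5), and Ccr8 was near the floor in all groups. Of 4 atypical receptors, which bind chemokines without the usual signal, Ccrl2 alone had an unadjusted p under 0.05, with log2 fold changes of 1.98 between resistant and sensitive samples (SE 0.75, adjusted p = 0.611) and -2.51 between sensitive and control samples (SE 0.72, adjusted p = 0.254). Ackr1, Ackr2 and Ackr4 differed by at most 0.53 between any groups. Of 11 other CC chemokine genes 7 were tested. Only the eosinophil attractant Ccl11, with a median of 2.14 on resistant, 2.01 on sensitive and 4.04 on control arrays, had an unadjusted p under 0.05, at -1.31 in resistant against control samples (SE 0.47, adjusted p = 0.999946) and -1.25 in sensitive against control samples (SE 0.47, adjusted p = 0.339).

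Among 10 cytokines that induce or restrain chemokine transcription, 5 were higher and 5 lower in resistant than in sensitive samples, with a median of 0.55. The inflammatory cytokine gene Il1a was higher by 2.82 (SE 0.79, adjusted p = 0.449) and Il10, an inhibitor of macrophage activation, by 3.73 (SE 1.44, adjusted p = 0.619). In sensitive against control samples 7 of 10 were lower (median -0.82), among them Il1a at -3.16 (SE 0.75, adjusted p = 0.191), Tnf at -1.97 (SE 0.61, adjusted p = 0.282) and Il1b at -2.91 (SE 0.99, adjusted p = 0.303). Resistant samples differed from control samples by -0.34 for Il1a, -0.66 for Tnf and -1.46 for Il1b, and 0 of the 10 had an unadjusted p under 0.05 there. Of 12 tested transcription factors and feedback genes of NF-kB, interferon and STAT6 signalling, 0 passed that level in any comparison, and the medians were 0.10, -0.23 and -0.15 for resistant against sensitive, sensitive against control and resistant against control samples.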

How the data were processed

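The values were deposited by the authors as 1 table of 45101 probe sets by 13 arrays. No base is stated for them, and they were taken as log2 from their range and spike-in controls. The labels name MAS5 and an Affymetrix labelling protocol, whereas the methods of the study describe bead chips of another maker, BRB-ArrayTools and a random variance t-test. The probe sets of the deposited table are those of an Affymetrix array, and the genome build was not given in the sources used here. The number of arrays limits the precision, since arrays give no counts.

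Deposited values were quantile normalized, set to a floor at the 30th percentile (2.01 on the log2 scale), and reduced to 1 probe set a gene, that with the highest mean. Of 45101 probe sets 34958 had 1 symbol in the platform annotation, 932 had several and 9211 were not listed. Genes above the floor on at least 4 arrays were tested with limma 3.58.1 in R 4.3.3 (lmFit, then eBayes with a trend, all 3 groups in 1 fit, 10 residual degrees of freedom, two-sided, Benjamini-Hochberg over 15370 genes), which was tested on simulated data. The threshold for a call was an adjusted p of 0.05. The members and gene lists were chosen with earlier results of these data known. Of each related list, at most 3 genes a comparison with the smallest unadjusted p under 0.05 are named, and of each member the 3 genes with the highest correlation. Promoters came from RefSeq (GRCm38.p6). Other settings are given in the closing section.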

Additional observations from a re-analysis of the deposited data

Results flagged for a closer look

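Of 30 member and group combinations, 1 held an array far from the rest of its group by Dixon's criterion, where chance alone gives about 1 in 20. Ccl12 was at 4.53 on sensitive array 4 and at the floor of 2.01 on the other 3 sensitive arrays, so the gap is measured against arrays at the limit. On that array the macrophage marker median was 9.32 and the 3' to 5' difference 5.75, and their part in the value was not tested.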

How the results depend on the processing

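Counts of called genes were 0 in each comparison under most settings. For resistant against sensitive samples limma called 1 gene (Prg4) with the floor at the 50th percentile, 2 (Alox15 and Cd5l) when fitted on both groups alone and 7 with sensitive arrays 1, 2 and 3 left out. Leaving out 1 array at a time gave 0 to 428 genes there, 428 without sensitive array 4. For sensitive against control samples the count was 5 (Col14a1, Gcnt2, Il2ra, Zfp386 and Zfp995) with sensitive arrays 1, 2 and 3 left out, and 0 to 696 with 1 array left out, 696 without sensitive array 4. For resistant against control samples array weights gave 34, and no member was among them. The genes named here are outside the naming rule and were chosen after their values were seen.

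No setting of scaling, floor, filter, probe sets or variance model turned the sign of a member. The overlap between groups for Ccl6, Ccl7 and Ccl9 did change with scaling, as given above. With sensitive arrays 1, 2 and 3 left out, resistant minus sensitive was -0.25 for Ccl4, -0.21 for Ccl5, -0.32 for Ccl7, -1.87 for Ccl8 and -1.32 for Ccl12, and sensitive minus control was 0.37 for Ccl4, 0.062 for Ccl5, 1.47 for Ccl8, 1.00 for Ccl12 and 0.13 for Ccl22. With control arrays 4 and 5 left out, sensitive minus control was 0.25 for Ccl5 and 0.0042 for Ccl22, and resistant minus control was 1.06 for Ccl5, 0.042 for Ccl6 and 0.76 for Ccl8. Leaving out 1 array turned the sign of 7 differences, whose ranges were -0.62 to 0.74 for Ccl2 and -0.34 to 0.59 for Ccl7 in resistant minus sensitive, and -0.17 to 0.51 for Ccl4, -0.84 to 0.34 for Ccl5, -0.54 to 0.29 for Ccl6, -1.17 to 0.71 for Ccl8 and -0.66 to 0.058 for Ccl12 in resistant minus control. The cause of these changes was not tested.

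Between same-numbered arrays of different groups, correlations of the deviations from group means ran from -0.43 to 0.53. Differently numbered arrays were not compared, so these values cannot decide whether replicate numbers pair the arrays. A replicate block gave 0 called genes in each comparison, and resistant minus control became 0.27 for Ccl5 and 0.035 for Ccl8, the same values as for Ccl5 and Ccl8 without control array 5.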
